A study of Saccharomyces cerevisiae with 40 samples.

Results

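The comparison described here set 2 haploid strains of budding yeast side by side before any herbicide was added: S288c, the laboratory reference strain, grown as GSY147, and RM11, a strain of vineyard origin. Its members were the libraries whose labels gave the strain as GSY147 or RM11, the medium as YM and the treatment as untreated, 5 per strain, which made 10 of the 40 libraries of the series. YM is a minimal medium of yeast nitrogen base, which supplies nitrogen, salts and vitamins, with dextrose. Cells were harvested in mid-log phase, total RNA was extracted with hot phenol, and the 10 libraries were read on lane 2. The other libraries came from the same strains treated with Credit41, a commercial glyphosate formulation, or grown in YM supplemented with the aromatic amino acids tryptophan, tyrosine and phenylalanine (WYF), of which only the 10 untreated WYF libraries are used below, all from lane 3. Each strain is a single isolate, so a strain difference holds every genetic difference between both isolates. The labels do not say that replicates came from separate cultures, and the p-values then measure only the spread between these libraries.

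As background, yeast isolates differ in their load of Ty retrotransposons, in the genes near chromosome ends, and in regulators such as Hap1, the heme-responsive activator of respiratory and sterol genes, which in the S288c lineage carries a Ty insertion near its end. In minimal medium a cell balances growth programs (ribosome assembly, nucleotide synthesis) against respiration, storage carbohydrates and stress genes. Inositol, iron and biotin each have a dedicated set of genes whose transcripts rise when the nutrient is scarce.

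Read pairs were assigned by the authors to transcripts of S288c only, so a transcript that RM11 lacks, or carries with a diverged sequence, reads as low there. The libraries held 4224354 to 7060264 estimated counts each. Values are given as CPM, counts scaled to the library total after TMM adjustment. The first principal component (89.5% of the variance) separated the strains. The second (3.24%) separated libraries 2 and 3 of S288c and 2 and 4 of RM11 from the rest. In those 4, 6227 to 6335 transcripts were detected, and 5990 to 6157 in the other 6. Those 4 held 5188064 to 7060264 counts and the other 6 held 4224354 to 6716390, and the part of depth in this split was not tested. The biological coefficient of variation was 11.1% within S288c and 7.05% within RM11. Markers of a cells summed to 1496 to 1655 CPM in S288c and 1526 to 1611 in RM11. The 4 alpha-cell markers summed to 77.4 to 99.8 CPM in S288c and 51.7 to 62.9 in RM11, nearly all from SAG1, the alpha agglutinin (81.4 ± 7.95 and 54.5 ± 5.68, SD, n = 5), while the pheromone genes MF(ALPHA)1 and MF(ALPHA)2 averaged 0.376 and 0.303 CPM in S288c and 0.903 and 0.0467 in RM11. The part of other cell types in the results below was not tested.

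The strains differed by at least 2-fold, at a Benjamini-Hochberg adjusted p under 0.05 in edgeR's quasi-likelihood test, in 847 of 5608 transcripts tested, 15.1% (these are the transcripts called below). Of them, 470 were higher in RM11 (8.38%) and 377 were lower (6.72%). These shares of all transcripts tested are the ones to set beside the counts in gene groups below. The median log2 difference over all transcripts tested, RM11 minus S288c throughout, was 0.00. The lower side held the larger differences: 90 transcripts were at least 16-fold lower in RM11 and 13 at least 16-fold higher. In 816 of the 847 the 5 libraries of one strain lay wholly above the 5 of the other, against 3297 of all 5608 tested (58.8%). Ty ORFs made up 56 of the 847, 113 had another transcript almost identical in sequence and 64 overlapped another ORF, which leaves their split of reads uncertain. With transcripts that had a copy, were Ty ORFs or were not matched to the annotation set aside, 424 were higher and 266 lower.

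**Figure D1:**
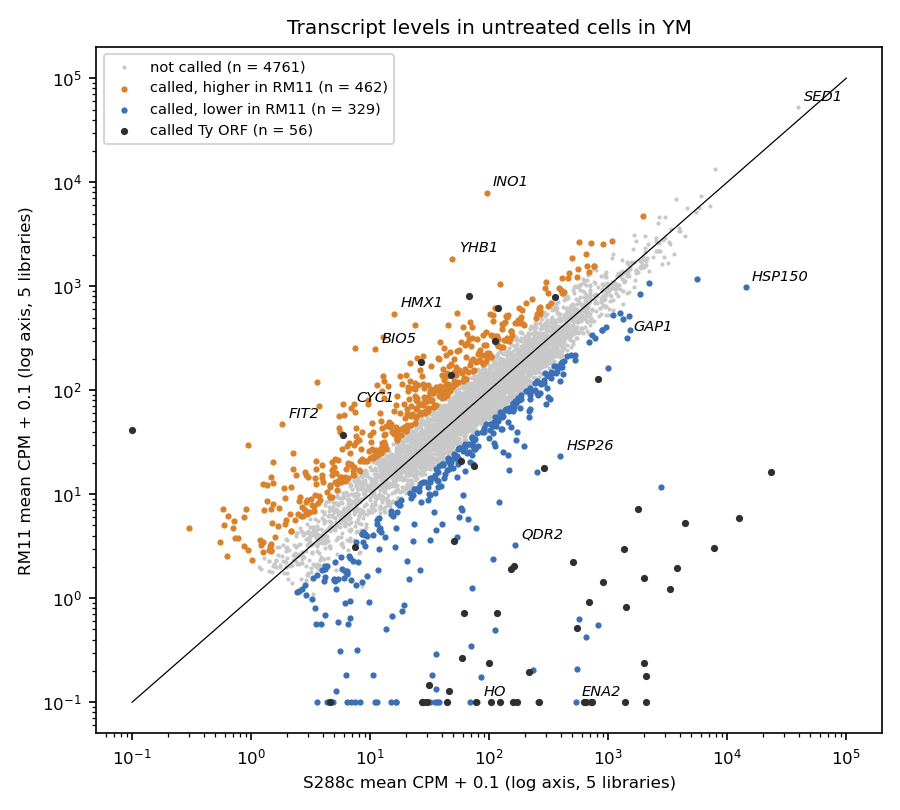
Mean CPM of each transcript in RM11 (vertical) against S288c (horizontal), both log axes with 0.1 added, 5 libraries per strain; the line marks equal levels. Called transcripts are colored, and the row of points at the floor on the lower right are transcripts such as HO and ENA2 with no counts in RM11.

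Ty ORFs, the reading frames of retrotransposons, were the largest block of RNA that set the strains apart. Their summed level was 79488 ± 5549 CPM in S288c and 4643 ± 267 in RM11 (SD, n = 5), 17.1-fold, and they took 7.42% to 8.59% of each S288c library against 0.439% to 0.503% of each RM11 library. Of 58 Ty ORFs tested, 48 were lower in RM11 and 8 higher. Elements of a Ty family share most of their sequence, so the total is firmer than any single ORF.

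In all, 44 transcripts were at 10 CPM or more in every S288c library and under 1 CPM in every RM11 library. They summed to 13746 to 17036 CPM in the S288c libraries and 1.11 to 4.48 CPM in the RM11 libraries. Of the 44, 23 were Ty ORFs, 30 had a near-identical copy and 8 lay within 25 kb of a chromosome end. A single transcript met the reverse rule, the Ty ORF YBL100W-A, with no count in any S288c library and 41.8, 25.6, 44.8, 41.1 and 53.4 CPM in RM11, at least 388-fold higher against a floor of 3 counts over the 5 libraries.

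HO, the endonuclease that switches mating type (chrIV:46271-48031 in R64, minus strand), read 69.7, 85.5, 79.9, 84.8 and 73.5 CPM in S288c and had no count in any of the 5 RM11 libraries, at least 780.2-fold lower. BDS1, a sulfatase gene, averaged 36.3 ± 3.66 CPM in S288c with no count in RM11, at least 361-fold lower. NFT1, an ABC transporter gene, was at least 344-fold lower, and ARN2, a siderophore transporter gene, at least 163-fold lower. None of these genes has a near-identical copy, and all of them were seen at 14 CPM or more in each S288c library. ENA2, one of a tandem array of sodium pumps, fell from 534 ± 31.8 CPM to no count (at least 5258-fold lower), but its neighbors share its sequence: ENA5 went from 65.6 to 5.71 CPM and ENA1 from 71.9 to 23.5. ASP3-1, the cell wall asparaginase made under nitrogen limitation, averaged 820.3 ± 107 CPM in S288c and 0.457 ± 0.691 in RM11 (log2 -11.03, SE 0.27, edgeR adjusted p = 1.28e-12, and -12.16 without RM11 library 3). Copies were searched only among counted transcripts. Of the 12 genes in the list that holds ASP3-1, 9 were counted, so its value may include reads of identical copies that were not. IDs R0040C and R0020C, for which the tables used here give no gene name, averaged 647 and 544 CPM in S288c and 0.325 and 0.108 in RM11.

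The mitochondrial genome also held transcripts seen in one strain. Of 10 ORFs of mitochondrial introns and spacers tested, which encode maturases and homing endonucleases, 7 were lower in RM11 and 1 higher. AI5_ALPHA, an intron ORF of COX1, read 37.5, 39.9, 33.3, 34.7 and 42.4 CPM in S288c and had no count in RM11, at least 372-fold lower. SCEI, the omega endonuclease, averaged 4.77 ± 0.995 CPM in S288c with no count in RM11, at least 46.3-fold lower. AI1 averaged 567 and 0.525 CPM, whereas AI2 rose from 261 ± 14.97 to 593 ± 35.7 (log2 1.19, edgeR adjusted p = 6.51e-10). Some of these ORFs, AI1 to AI5_ALPHA among them, include the upstream exons of COX1 or overlap each other. Reads of shared exons can move between those ORFs and COX1, which need not hold for the rest.

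Near-identical copies give differences between single genes that their sum does not show. TEF2, which encodes translation elongation factor eEF1A and was chosen after its values were seen, fell from 2773 ± 81.9 to 11.7 ± 2.90 CPM (log2 -7.92, edgeR adjusted p = 1.64e-14). The sum with TEF1, which encodes the same protein, was 6479 ± 243 CPM in S288c and 6944 ± 215 in RM11, a log2 ratio of 0.10. RPS6A and RPS6B, a ribosomal protein pair also picked after its values were seen, moved to opposite sides (log2 -2.02 and 1.24), and the log2 ratio of their sum was -0.17. Over 132 ribosomal protein genes tested, 7 were called and the median log2 difference was 0.00.

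INO1, the inositol 3-phosphate synthase that makes the first committed step of inositol synthesis, had the largest rise among transcripts without a copy. It read 91.4, 91.2, 81.6, 102 and 108 CPM in S288c libraries 1 to 5 and 7911, 7425, 7932, 7506 and 8890.2 in RM11 libraries 1 to 5. Every RM11 library was more than 60 times above every S288c library, a log2 difference of 6.38 (SE 0.09, 83.5-fold, edgeR adjusted p = 4.92e-15). Ranked by TPM, which corrects for length, INO1 moved from position 2696 of all transcripts in S288c to 46 in RM11. Of the 22 phospholipid and inositol genes tested, 4 rose and none fell, with a median log2 difference of 0.59, where 8.38% of all transcripts rose. The others that rose were all in phosphatidylcholine synthesis: OPI3, a phospholipid methyltransferase, from 52.3 ± 4.59 to 168 ± 13.7 CPM, CHO1, the phosphatidylserine synthase, from 252 ± 23.5 to 543 ± 7.71, and CHO2, the methyltransferase before OPI3, from 314 ± 19.7 to 647 ± 36.8. CHO2 no longer reached 2-fold with effective lengths (log2 0.99) or with limma on log2(TPM + 1) (0.88), which left 3 that rose. ITR1, the main inositol transporter, went from 2651 ± 306 to 4625 ± 166 CPM, under the 2-fold threshold (log2 0.80, edgeR adjusted p = 2.92e-07), and ITR2, the minor one, had a log2 difference of -0.13. The activator genes INO2 and INO4 differed by 0.71 and -0.35 on the log2 scale, and OPI1, the repressor gene of the pathway, by 0.48, none of them called. ITR1, ITR2, INO4 and OPI1 were chosen after their values were seen.

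The promoter stretches of INO1 and OPI3 are shown because these genes share the core of the inositol-responsive element bound by Ino2 and Ino4 in S288c. Capitals mark the letters CATGTG on either strand. They are S288c sequence from R64, each printed in the direction of its gene (minus strand), INO1 at chrX:136086-136196, which is 263 to 153 bases before its start codon, and OPI3 at chrX:573076-573167, 232 to 141 bases before its start codon.
INO1: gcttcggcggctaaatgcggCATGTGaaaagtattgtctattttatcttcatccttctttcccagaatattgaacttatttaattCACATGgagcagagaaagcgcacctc
OPI3: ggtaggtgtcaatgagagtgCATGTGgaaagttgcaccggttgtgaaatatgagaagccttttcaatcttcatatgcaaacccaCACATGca
CATGTG was found in the 500 bases before the start codon of 14 of the 22 genes of the group, among them all 4 that rose, and in 13.04% of 5437 such windows. The list holds genes of this pathway and was added after values were seen, so this is a property of the list. A match is a description of these letters and not a bound site, and the RM11 sequence was not read here.

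Biotin genes rose as a block: 5 of 6 tested were higher in RM11 and the sixth was not called, with a median log2 difference of 2.87. BIO5, a transporter of a biotin precursor, read 8.94, 11.1, 15.1, 9.35 and 10.3 CPM in S288c and 237, 239, 267, 247 and 259.99 in RM11. The strains did not overlap, and the log2 difference was 4.52 (SE 0.10, edgeR adjusted p = 6.95e-13). BIO4 and BIO3, neighbors of BIO5 on chromosome XIV and enzymes of the pathway, rose by log2 3.26 and 3.23. VHT1, the biotin transporter, rose from 71.1 ± 7.34 to 403 ± 22.8 CPM, and BIO2, biotin synthase, from 177 ± 29.7 to 617 ± 21.9. BPL1, the ligase that attaches biotin to enzymes, had a log2 difference of 0.66, under the threshold.

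**Figure D2:**
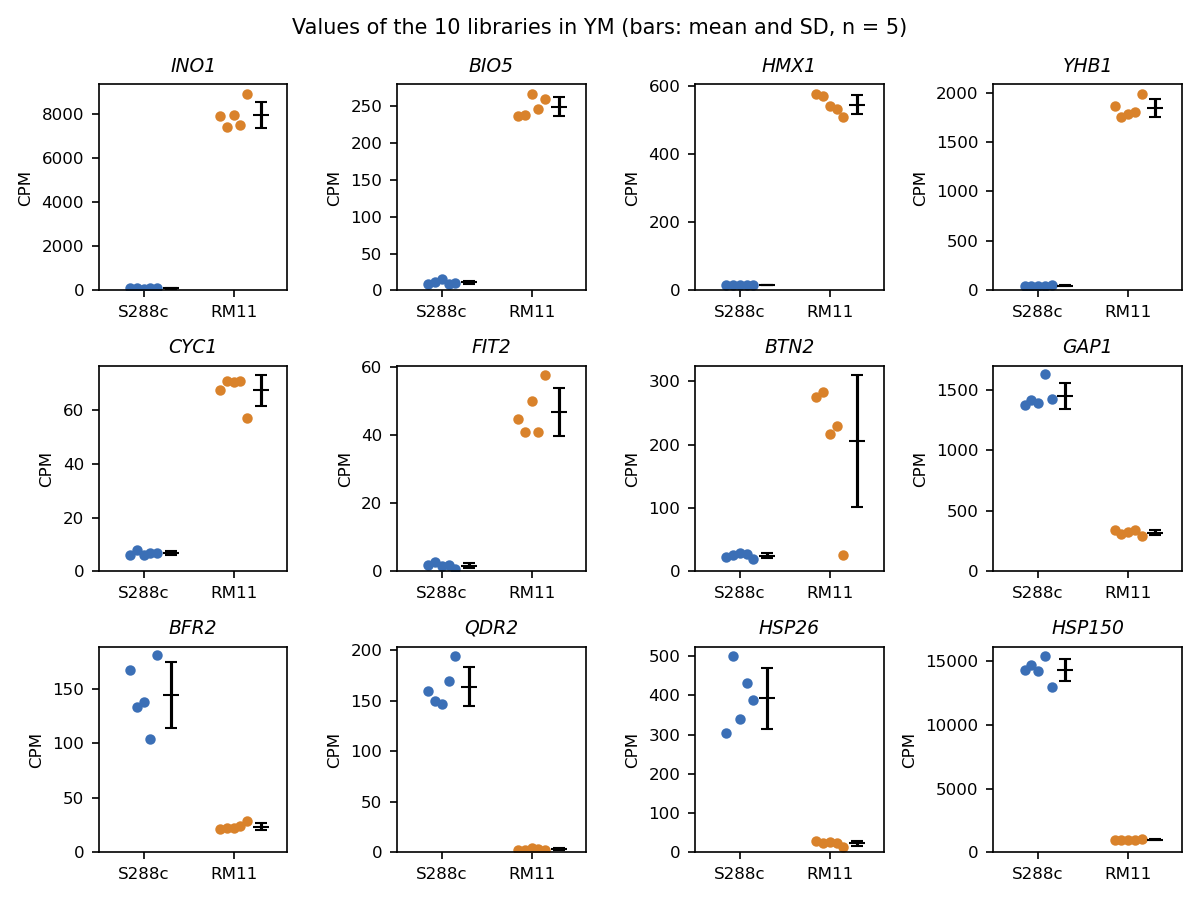
CPM of 12 named genes in each of the 10 YM libraries (linear axes from 0, points are libraries 1 to 5 from left to right in each strain, bars are mean and SD, n = 5). In 11 of the 12 genes the strains do not overlap, and in BTN2 the RM11 library 5 sits at the S288c level.

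The 39 listed nuclear genes of oxidative phosphorylation, a list that leaves out COX5B, were higher in RM11 without exception in sign. All 39 tested had a positive difference with no overlap between strains, 28 were called and the median log2 difference was 1.52. CYC1, the main cytochrome c, read 6.17, 7.96, 6.19, 6.70 and 6.67 CPM in S288c and 67.2, 70.7, 70.5, 70.5 and 56.9 in RM11. RM11 library 5 was the lowest of its strain and still far above S288c, with a log2 difference of 3.31 (SE 0.10, edgeR adjusted p = 7.03e-12). NDE1, the external NADH dehydrogenase, rose from 122 ± 7.01 to 1059 ± 53.95 CPM, and ATP14, a subunit of ATP synthase, from 21.6 ± 3.76 to 184 ± 8.50. In complex III the Rieske protein gene RIP1 rose by log2 2.61 and the cytochrome c1 gene CYT1 by 2.42. In complex IV, COX7 rose by 2.75, and the aerobic and hypoxic forms of subunit V moved to opposite sides, COX5A from 43.4 ± 5.99 to 216 ± 22.1 CPM and COX5B, chosen after its values were seen, from 46.7 ± 2.94 to 19.5 ± 2.11.

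Genes around respiration followed with fewer calls. Of 22 genes of the tricarboxylic acid and glyoxylate cycles tested, 5 rose and none fell (median log2 0.76), among them CIT2, the peroxisomal citrate synthase (227 ± 34.9 to 748 ± 36.4 CPM), and MLS1, malate synthase (2.14 ± 2.16 to 17.5 ± 3.98), whose log2 difference of 2.97 was 3.70 without S288c library 2. Of 6 mitochondrially encoded genes tested, COX1, COX3 and OLI1 rose, by log2 1.75, 1.56 and 1.08, while COB, cytochrome b, had a log2 difference of -0.96 and was not called. Some intron ORFs described above include upstream exons of COX1, so reads can move between them and its rise is uncertain. Whether COB shares reads with intron ORFs was not tested. OLI1 lost its call when libraries were thinned to the smallest total (0.90) and on log2(TPM + 1) (0.94), and COB was called lower without RM11 library 5 (-1.01) and on log2(TPM + 1) (-1.07). YHB1, the flavohemoglobin that removes nitric oxide, read 48.1, 49.4, 49.3, 39.7 and 58.4 CPM in S288c and 1867, 1753, 1788, 1805 and 1984 in RM11. It was the second largest rise among transcripts without a copy (log2 5.23, SE 0.09, edgeR adjusted p = 2.84e-14). CYB2, the lactate dehydrogenase that uses cytochrome c, rose by log2 2.97. A pair of transcripts among the 10 largest rises belong here by annotation: ISF1, linked to mitochondrial RNA splicing, went from 7.29 ± 1.84 to 256 ± 18.9 CPM and SUE1, which takes part in turnover of unstable cytochrome c, from 3.58 ± 0.658 to 70.9 ± 9.31.

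Of the regulators of these genes, HAP4, the activating subunit of the CCAAT-binding complex, was called, with 154, 139, 122, 134 and 202 CPM in S288c and 341, 317, 329, 318 and 259 in RM11 (log2 1.06, SE 0.12, edgeR adjusted p = 3.98e-06). S288c library 5 was the highest and RM11 library 5 the lowest of their strains for HAP4, and without S288c library 3 the difference was 0.98 and no longer reached 2-fold. HAP1 read 318, 320.00, 320.1, 320.4 and 308 CPM in S288c and 152, 164, 168, 162 and 168 in RM11, a log2 difference of -0.96 that fell just short of 2-fold (edgeR adjusted p = 4.39e-10). The Ty ORF YLR256W-A starts 193 bases beyond the annotated end of HAP1 in R64 and averaged 2061 CPM in S288c and 0.0788 in RM11. HAP2, HAP3, HAP5 and the repressor genes ROX1 and MOT3 were not called, with log2 differences from -0.32 to 0.64. CCAAT, on either strand, was found within 500 bases of the start codon in 35 of the 39 oxidative phosphorylation genes and in 62.6% of all 5437 windows. The spaced CGG motif of Hap1 was found in 1 of the 39 and in 0.368% of all windows. Neither kind of match was tested for function.

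Sterol genes shared this direction. Of 27 ergosterol genes tested, 11 rose, 1 fell and the median log2 difference was 0.81. HMG1, the HMG-CoA reductase isozyme of aerobic cells, read 63.4, 67.8, 72.3, 65.3 and 69.7 CPM in S288c and 301, 312, 321, 306 and 317 in RM11. These levels did not overlap (log2 2.20, SE 0.05, edgeR adjusted p = 5.10e-13), whereas HMG2, the other isozyme, had a log2 difference of 0.19. ERG11, the target of azole drugs, rose from 555 ± 34.3 to 1476 ± 80.7 CPM, ERG5 from 50.7 ± 6.38 to 150.1 ± 11.6 and ERG13 from 182 ± 13.9 to 473 ± 38.9. ERG28, a scaffold protein gene, rose by log2 2.58 from a level near 1 CPM. ERG4, the last enzyme of the pathway, fell from 123 ± 6.72 to 61.5 ± 3.89 CPM (log2 -1.005), just past 2-fold, and missed it without S288c library 4 or 5 or RM11 library 2 or 4 (-0.99 to -0.97). HMG2 and ERG4 were chosen after their values were seen. With limma on log2(TPM + 1) 7 rose.

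Of 30 iron regulon genes tested, 11 rose, 2 fell and the median log2 difference was 0.55. HMX1, heme oxygenase, read 15.6, 15.2, 15.3, 17.3 and 15.4 CPM in S288c and 576, 569.8, 541, 532 and 509 in RM11. Its log2 difference was 5.11 (SE 0.06, edgeR adjusted p = 1.64e-15). FIT2, a cell wall mannoprotein that retains siderophores, read 1.85, 2.65, 1.55, 1.94 and 0.606 CPM in S288c and 44.8, 41.1, 50.2, 40.9 and 57.7 in RM11 (log2 4.70, SE 0.20, edgeR adjusted p = 2.76e-10). FIT3, its neighbor on chromosome XV, rose from 12.7 ± 2.67 to 135 ± 13.4 CPM. Among uptake genes, the siderophore transporter ARN1 rose from 17.6 ± 4.72 to 136 ± 8.02, the reductase FRE1 from 7.57 ± 0.639 to 43.7 ± 5.42 and the siderophore transporter SIT1 from 19.04 ± 2.02 to 73.9 ± 11.6. TIS11, whose product degrades transcripts of iron-using proteins, rose by log2 1.68. The high-affinity uptake pair did not pass 2-fold: FET3, the ferroxidase, had a log2 difference of 0.40 and FTR1, the permease, of 0.56. FET4, the low-affinity iron transporter, fell from 55.3 ± 8.80 to 5.92 ± 0.808 CPM (log2 -3.23, edgeR adjusted p = 2.44e-10), and ARN2 was described above. FRE1, SIT1, TIS11, FET3 and FTR1 were chosen after their values were seen. Leaving out any one library gave 9 or 10 genes that rose, the 9 without RM11 library 5.

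Promoter stretches of FIT2 and HMX1 are shown because they hold the core of the Aft1 site. Capitals mark TGCACCC on either strand, in S288c sequence from R64, FIT2 at chrXV:1059180-1059308 (plus strand, 351 to 223 bases before its start codon) and HMX1 at chrXII:554102-554148 (minus strand, 471 to 425 bases before its start codon).
FIT2: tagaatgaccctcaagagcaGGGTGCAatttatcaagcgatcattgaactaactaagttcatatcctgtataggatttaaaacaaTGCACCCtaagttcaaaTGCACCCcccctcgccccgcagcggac
HMX1: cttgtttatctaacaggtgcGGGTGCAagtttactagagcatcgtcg
TGCACCC was found within 500 bases of the start codon in 22 of the 30 iron genes, 12 of the 13 called among them, and in 2.35% of all windows. The list was compiled from genes known to respond to iron, so this is a property of the list, and no such match was tested for function.

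Storage carbohydrate and stress genes were mostly higher in RM11: of 31 tested, 14 rose, none fell and the median log2 difference was 0.94. CTT1, cytosolic catalase, read 19.7, 36.4, 29.4, 37.03 and 15.2 CPM in S288c and 232, 222, 209.8, 211 and 183 in RM11. The S288c libraries spread over more than 2-fold and stayed below every RM11 library (log2 2.93, SE 0.18, edgeR adjusted p = 1.29e-08). GPH1, glycogen phosphorylase, rose from 300.5 ± 50.04 to 1098 ± 88.9 CPM, GND2, a minor phosphogluconate dehydrogenase, from 27.7 ± 7.44 to 115 ± 7.68, and TPS2, trehalose phosphate phosphatase (chosen after its values were seen), by log2 1.43. Of 23 heat shock chaperone genes tested, 6 rose, 1 fell and the median was 0.35. HSP26, a small heat shock protein, was the one that fell, with 303, 499.97, 339, 432 and 387 CPM in S288c and 28.1, 23.004, 27.5, 23.9 and 12.8 in RM11 (log2 -4.09, SE 0.18, edgeR adjusted p = 4.90e-10). The related gene HSP42 rose instead, from 112, 134, 114, 151 and 43.4 in S288c to 755, 668, 654, 699 and 276 in RM11 (log2 2.45, edgeR adjusted p = 9.38e-06). Library 5 was the lowest of both strains for HSP42.

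That library also stood apart for other chaperone genes. BTN2, an aggregate sorting factor, read 275, 283, 217, 229 and 26.6 CPM in RM11 libraries 1 to 5 against 23.4, 25.4, 28.4, 27.2 and 18.99 in S288c. RM11 library 5 lay within the S288c range for BTN2, so the strains overlapped although the gene was called (log2 3.06, SE 0.46, edgeR adjusted p = 4.91e-05). HSP30, a plasma membrane stress protein, read 94.03, 75.04, 94.3, 82.4 and 25.01 in RM11 against 4.78, 8.11, 10.6, 10.2 and 2.42 in S288c (log2 3.35, edgeR adjusted p = 3.55e-06). RM11 library 5 was again the lowest of its strain, above every S288c library. Without the 2 libraries numbered 5, a choice made after the values were seen, 6 chaperone genes rose and 1 fell, and 13 of the stress genes rose and none fell.

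**Figure D3:**
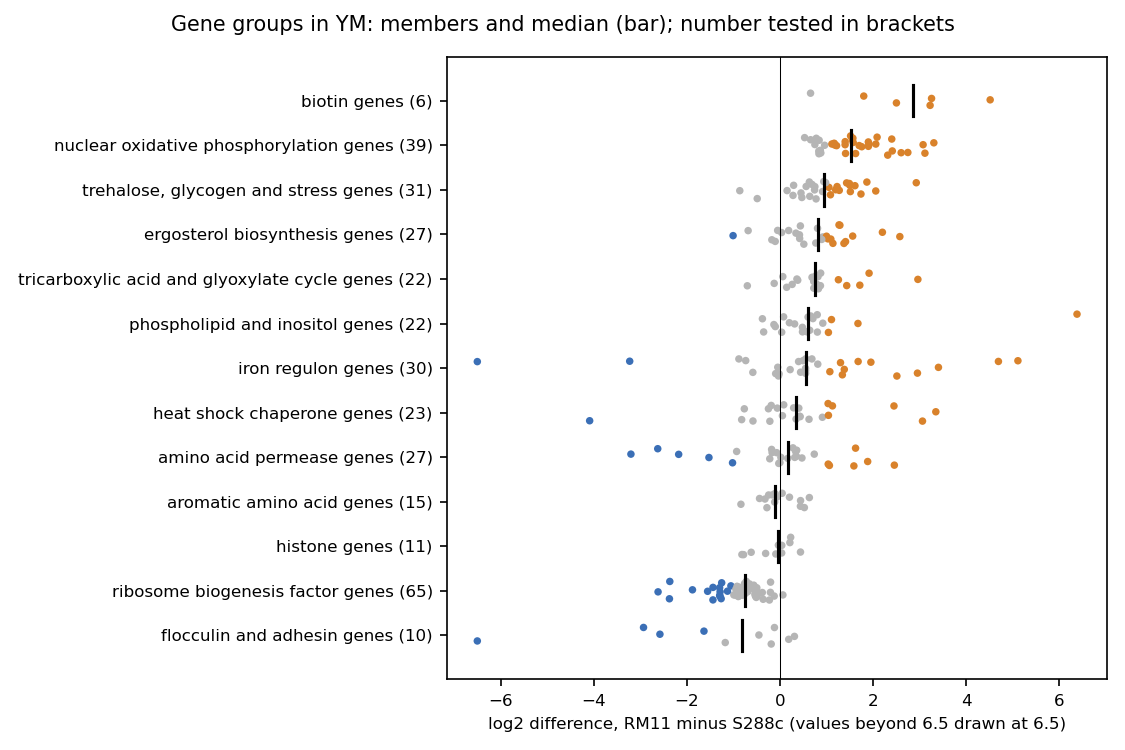
Log2 difference (RM11 minus S288c) of every tested member of 13 gene groups; orange points were called higher, blue called lower, gray not called, and the black bar is the group median, from 2.87 for biotin genes to -0.81 for flocculin genes. The oxidative phosphorylation genes all lie right of 0 and 64 of the 65 ribosome biogenesis genes lie left of it.

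Factors that build ribosomes were lower in RM11. Of 65 ribosome biogenesis genes tested, 15 fell, none rose, 64 had a negative difference and the median log2 difference was -0.76. BFR2, a component of the small subunit processome, read 167, 133, 138, 104 and 181 CPM in S288c and 21.4, 21.9, 22.2, 23.9 and 28.6 in RM11. Its lowest S288c library was more than 3 times its highest RM11 library (log2 -2.62, SE 0.14, edgeR adjusted p = 3.77e-09). RRN11, a core factor of RNA polymerase I, fell from 130.4 ± 17.5 to 25.2 ± 4.26 CPM, RRP36 from 34.1 ± 9.13 to 6.60 ± 1.89 and NOP16 from 72.7 ± 18.7 to 19.6 ± 3.66. EBP2 and MAK16, both needed for the large subunit, fell by 1.55 and 1.44 on the log2 scale. The ribosomal proteins themselves, as given above, had a median of 0.00. A stretch before RRN11 is shown for its run of overlapping matches to the letters GATGAG (capitals, either strand), the core of the element named PAC, at chrXIII:191921-191976 in R64, minus strand, 209 to 154 bases before the start codon.
RRN11: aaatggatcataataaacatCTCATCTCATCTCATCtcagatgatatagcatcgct
GATGAG was found within 500 bases of the start codon in 62 of the 65 genes, all 15 called among them, and in 28.2% of all windows. Nearly all genes of the list hold these letters, called or not, so this is a property of the list. No match was tested for function.

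Cell wall and adhesion genes differed in single genes more than as groups. HSP150, a heat-inducible wall mannoprotein, read 14264, 14655, 14181, 15405 and 12974 CPM in S288c and 986, 953, 987, 958 and 1039 in RM11. By TPM it moved from rank 10 of all transcripts in S288c to 225 in RM11 (log2 -3.86, SE 0.05, edgeR adjusted p = 4.92e-15). SED1, the major stress wall protein, was at rank 1 in S288c and 2 in RM11, with 39192 ± 3007 and 52283 ± 1742 CPM, a difference under the threshold (log2 0.42). The study reports a deletion in the RM11 allele of SED1, so its RM11 level, counted on the S288c transcript, may read low. The size of that effect was not tested. Over 31 wall protein genes tested, 4 rose, 2 fell and the median log2 difference was -0.02, where 15.1% of all transcripts were called. CTS1, the chitinase that frees daughter cells, fell from 5552 ± 255 to 1175 ± 23.2 CPM (log2 -2.24, SE 0.04, edgeR adjusted p = 8.45e-14), and DSE2, a daughter wall glucanase, from 1268 ± 101 to 548 ± 26.7. These were the 2 calls among 16 daughter-separation genes, against 15.1% of all transcripts tested. AMN1, a regulator of that program known to vary between these strains, had 249 ± 20.3 and 259.7 ± 7.57 CPM and was not called.

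Of 10 flocculin and adhesin genes tested, 4 fell, none rose and the median log2 difference was -0.81. FLO5, a cell-to-cell adhesin, fell from 40.3 ± 9.83 to 5.09 ± 2.23 CPM, FLO1 and FLO9 fell by 1.63 and 2.58 on the log2 scale (log2 -1.97 for FLO9 without S288c library 3), and FLO10 had no count in RM11 (at least 71.9-fold lower). FLO1, FLO5 and FLO9 are near-identical in parts and their split is uncertain. FLO11, the adhesin of filamentous growth, read 55.04, 100.4, 128, 22.4 and 38.4 in S288c and 4.31, 53.95, 12.8, 68.7 and 3.74 in RM11. It was high in libraries 1, 2 and 3 of S288c and libraries 2 and 4 of RM11, the strains overlapped and it was not called (log2 -1.17, edgeR adjusted p = 0.119). Libraries 2 and 3 of S288c and 2 and 4 of RM11 are the 4 that stood apart on the second component, and without them the FLO11 difference was -2.54 and called (edgeR adjusted p = 0.00142), as it was without RM11 library 4 alone (-1.78, edgeR adjusted p = 0.0364).

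Transporters moved in both directions. QDR2, a multidrug and potassium transporter, read 159.9, 149.9, 146, 169.8 and 194 CPM in S288c and 2.58, 2.88, 4.43, 3.46 and 2.36 in RM11. This was the largest fall in the multidrug list (log2 -5.71, SE 0.13, edgeR adjusted p = 6.93e-13), of which 3 of 23 tested rose and 4 fell. Of 27 amino acid and ammonium permease genes, 6 rose and 5 fell, with a median log2 difference of 0.17. GAP1, the general amino acid permease, fell from 1446 ± 106 to 320.4 ± 20.9 CPM, DIP5, a permease for acidic amino acids, from 20.4 ± 2.97 to 2.16 ± 0.711, and PUT4, the proline permease, rose from 144 ± 40.9 to 533 ± 54.1. The glutamine permease gene GNP1 read 1.21, 4.93, 1.63, 7.33 and 1.97 in RM11, highest in libraries 2 and 4, against 19.7, 26.8, 35.4, 16.4 and 15.8 in S288c (log2 -2.62, edgeR adjusted p = 3.88e-05). Among 13 hexose transporter genes, HXT1, a low-affinity one, fell from 195 ± 19.04 to 28.7 ± 2.05 CPM, and HXT4 rose from 19.7 ± 4.75 to 139 ± 20.6. HXT6 and HXT7, near-identical high-affinity transporters, summed to 1095 ± 444 CPM in S288c and 3142 ± 448 in RM11, a log2 ratio of 1.52. GIT1, a transporter of glycerophosphoinositol, rose from 3.45 ± 1.88 to 121 ± 12.2 CPM (log2 5.07, SE 0.19, edgeR adjusted p = 1.04e-10), and ZRT1, the high-affinity zinc transporter, from 573 ± 163 to 2686 ± 394. In the maltose and galactose group 6 of 15 rose and 5 fell, the maltose permease gene MAL31 rising from 20.7 ± 6.32 to 107 ± 16.4 CPM.

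Several amino acid synthesis lists, among them the aromatic pathway that glyphosate targets in plants, held no called gene. Of 15 aromatic amino acid genes none was called, with 10 at an unadjusted p under 0.05 and none called by DESeq2 (median log2 -0.11). Over all transcripts tested, 4134 of 5608 had an unadjusted p under 0.05 in edgeR and 15.1% were called. Branched-chain genes gave 0 calls of 13 by edgeR and 0 by DESeq2 (11 at an unadjusted p under 0.05), lysine genes 0 of 9 by edgeR and 0 by DESeq2 (8) and histidine genes 0 of 7 by edgeR and 0 by DESeq2 (5). Of 15 arginine genes 1 rose and 1 fell, and CAR2, a catabolic transaminase, was the one that rose, from 10.5 ± 3.06 to 39.5 ± 2.95 CPM. Of 26 purine and pyrimidine genes, 5 fell and 1 rose: URA3, orotidine phosphate decarboxylase, fell from 325 ± 21.6 to 82.2 ± 7.51 CPM, and URA10, an isozyme of the preceding step, rose from 13.002 ± 1.91 to 83.98 ± 7.96. SAM2, a synthase of S-adenosylmethionine, rose from 647 ± 35.8 to 2039 ± 47.5. IME1, the master inducer of meiosis, fell from 21.3, 20.05, 19.5, 18.2 and 17.2 CPM in S288c to 0.517, 0.685, 0.933, 1.24 and 0.394 in RM11, a log2 difference of -4.60 (SE 0.20, edgeR adjusted p = 3.61e-10). PRM5, a pheromone-regulated membrane protein gene, fell by 3.82 on the log2 scale and MFA1, the a-factor gene, by 1.48. Of 7 a-specific genes tested MFA1 fell, ASG7, a regulator of pheromone signaling, rose (log2 1.17, edgeR adjusted p = 7.76e-07, under 2-fold at 0.97 on log2(TPM + 1)), and the median log2 difference was 0.05. The largest rises not yet named were MGA1, a gene of a heat shock factor-like protein, from 12.8 ± 2.19 to 323 ± 44.1 CPM, and YER053C-A, from 0.836 ± 0.581 to 29.4 ± 4.58.

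Of 19 genes that respond to Hap1 or oxygen, 7 rose, 1 fell and the median log2 difference was 0.71, with YHB1, CYC1 and HMG1 above among them. The 5 markers of meiotic diploid cells summed to 46.7 to 53.4 CPM in S288c and 25.1 to 32.7 in RM11, and of 6 meiotic regulator genes tested IME1 alone was called. Of 31 sulfate and methionine genes 3 rose and none fell, of 24 phosphate genes 4 rose and none fell, and of 14 thiamine genes 4 rose and 1 fell. Over all transcripts tested, 8.38% rose and 6.72% fell. Among 29 genes of glycolysis and fermentation 4 rose and 2 fell. ADH2, the alcohol dehydrogenase that oxidizes ethanol, rose from 8.38 ± 5.02 to 39.3 ± 10.1 CPM, and PDC5, a minor pyruvate decarboxylase, from 12.3 ± 2.44 to 50.8 ± 5.36. TDH3, the main glyceraldehyde phosphate dehydrogenase, fell from 890.3 ± 66.9 to 382 ± 23.2 CPM, a log2 difference of -1.22 (SE 0.06, edgeR adjusted p = 1.29e-09). Of 11 histone genes none was called by edgeR or DESeq2, with 7 at an unadjusted p under 0.05, against 4134 of all 5608 transcripts tested.

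Calls were more frequent near chromosome ends. Within 10 kb of an end 41 of 57 transcripts tested were called (71.9%), from 10 to 25 kb 57 of 144 (39.6%), from 25 to 50 kb 57 of 343 (16.6%) and farther in 636 of 4952 (12.8%). With Ty ORFs and near-identical copies left out the shares were 61.5%, 33.9%, 15.7% and 11.8%, where the first rests on 26 transcripts. Over all nuclear transcripts tested, calls within 10 kb were 13 higher in RM11 and 28 lower. From 10 to 25 kb they were 37 higher and 20 lower, from 25 to 50 kb 31 and 26, and farther in 368 and 268. Genes that RM11 lacks or carries diverged read as low, and their part in these shares was not tested. Neighbors called in 1 direction in runs of 4 or more, Ty ORFs aside, were found at 6 places. FIT2, FIT3, FRE5, YOR385W and PHR1 were all higher in RM11 on chromosome XV (1059531 to 1068536 in R64), with PHR1, the photolyase gene, at 11.7 ± 1.98 and 25.2 ± 2.04 CPM. FRE5, whose strains overlapped, lost its call when any of 9 libraries was left out and had a log2 difference of 2.23 without S288c library 3. QCR2, AQY1, HPA2, OPT2 and YPR196W were all higher on chromosome XVI (919381 to 932788). FLO10, NFT1, YKR104W and GEX2 were all lower on chromosome XI (646356 to 663289), and COS8, from a family of subtelomeric membrane protein genes, with 76.8 ± 8.07 and 4.64 ± 1.04 CPM, was in a lower run on chromosome VIII. The genes of these runs were listed for their position after their values were seen.

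**Figure D4:**
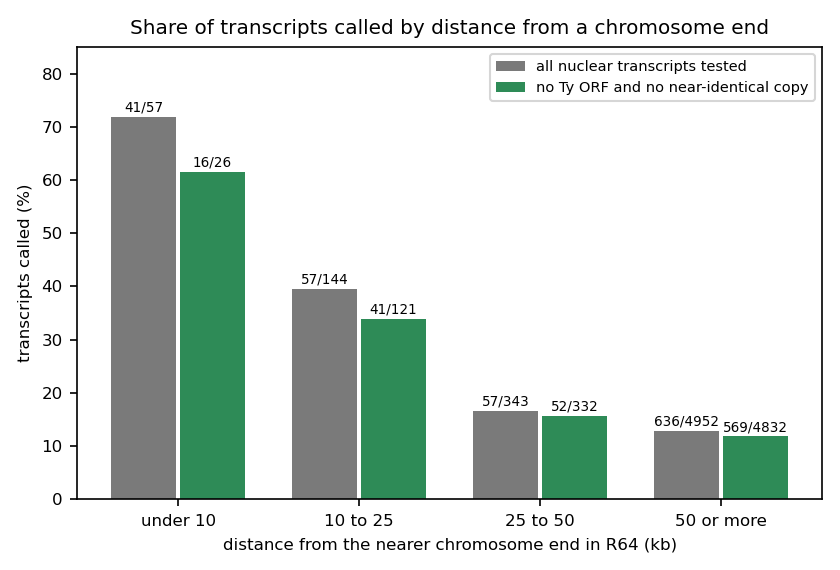
Percent of tested nuclear transcripts called between the strains in YM by distance from the nearer chromosome end in R64, with all transcripts in gray and those without Ty ORFs or near-identical copies in green; numbers are called over tested. The share falls from 71.9% within 10 kb to 12.8% beyond 50 kb.

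The untreated WYF libraries gave the strain difference in another medium and lane with no library shared, and medium and lane cannot be told apart. There, 604 of 5604 transcripts were called (10.8%), 275 higher in RM11 (4.91%) and 329 lower (5.87%). Of 833 called in YM and tested in both, 447 were called in the same direction in WYF, which is 53.7% of the YM list and 76.8% of the 582 called in WYF. One gene was called in opposite directions, SPI1, a wall protein gene of stationary phase, with a log2 difference of 1.89 in YM and -1.18 in WYF. Across the 5566 transcripts tested in both, Pearson's r of the log2 differences was 0.894, over genes that are not independent and share libraries within each medium.

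Groups kept or lost their difference to varying degrees. Biotin genes had 5 of 6 called higher in WYF as well (median log2 2.76) and oxidative phosphorylation genes 21 of 39 (1.14). The stress list went from 14 higher and 0 lower in YM to 2 higher and 4 lower in WYF (median -0.14), heat shock genes from 6 and 1 to 0 and 6 (-0.43), iron genes from 11 and 2 to 3 and 2 (-0.12) and ribosome biogenesis genes from 0 and 15 to 0 and 3 (-0.10). The difference itself was tested as an interaction, which called 278 of 5684 transcripts (4.89%), 212 with RM11 relatively higher in YM (3.73%) and 66 relatively lower (1.16%). Without RM11 WYF libraries 1 and 2, left out after the values were seen, the relatively lower count was 43. It called 15 of the 31 stress genes and 11 of the 23 heat shock genes, each relatively higher in YM, 6 of the iron genes in that direction and 10 of the ribosome biogenesis genes in the other, beside 1 of the 39 oxidative phosphorylation genes.

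Single genes showed where the media parted. FIT2 had a log2 difference of 4.70 in YM and -0.57 in WYF (interaction 5.28, edgeR adjusted p = 1.35e-08), while HMX1 had 5.11 and 4.27. INO1 stood at 95.01 ± 10.5 and 7933 ± 582 CPM in YM and at 666 ± 134 and 4294 ± 494 in WYF, so that the difference was larger in YM (interaction 3.71, edgeR adjusted p = 3.77e-12). DIP5 averaged 297 ± 29.4 CPM in S288c and 286 ± 28.8 in RM11 in WYF, far above its YM level in both strains (interaction -3.13, edgeR adjusted p = 6.01e-10). HSP150 differed by -3.86 in YM and -3.63 in WYF, QDR2 by -5.71 and -5.16, and CYC1 by 3.31 and 3.73, none of these called in the interaction. The 44 transcripts near 0 in RM11 in YM summed to 1.87 to 268 CPM in the RM11 WYF libraries, the highest being libraries 1 (47.6) and 2 (268), against 10544 to 17119 CPM in S288c. For that reason folds of those transcripts in WYF are not given here.

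**Figure D5:**
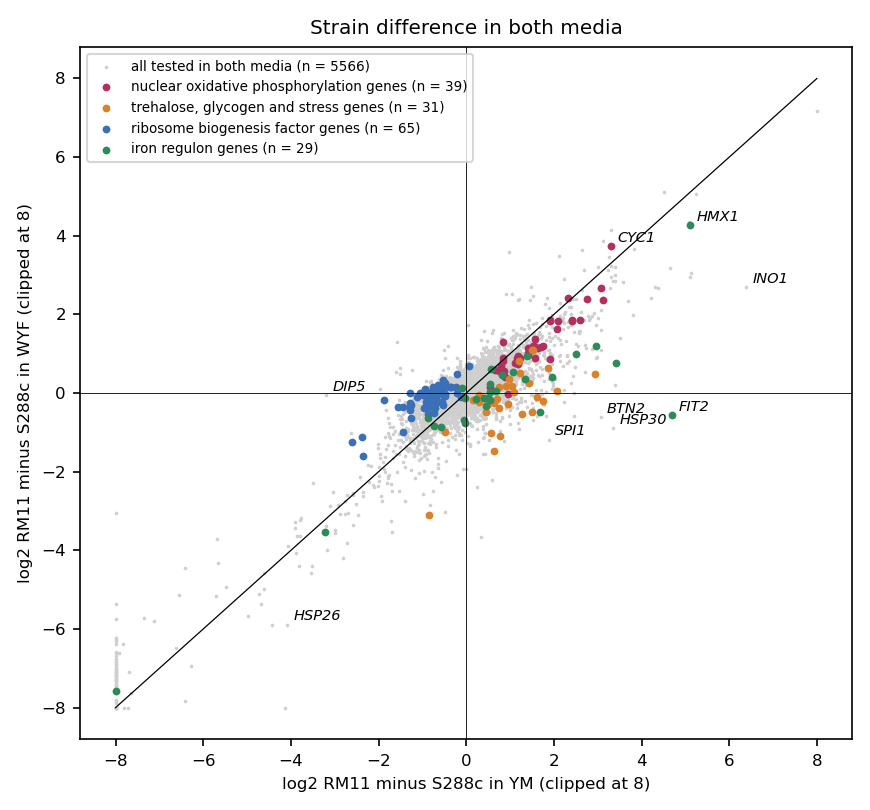
Log2 strain difference in WYF (vertical) against YM (horizontal) for 5566 transcripts tested in both, values beyond 8 drawn at 8; colored points are 4 gene groups and the line marks equal differences. Stress genes (orange) and several iron genes (green) lie right of 0 and near or below 0 on the vertical axis, while oxidative phosphorylation genes lie near or below the line.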

How the data were processed

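Per the labels and the study's methods, total RNA was extracted with hot phenol and libraries were built with a ScriptSeq kit, sequenced as read pairs and assigned by the authors to an S288c transcriptome with Salmon 0.13.1. The deposited estimated counts per transcript and the deposited TPM values were used. Whether counting used strand is not given in the sources used here, so overlapping ORFs are uncertain. Of 6661 transcripts, 5993 matched RefSeq R64 by identifier and the length was that of the R64 coding sequence for 5988 of these. With blastn 2.17.0, 284 transcripts had a near-identical copy among the counted transcripts (95% identity over 100 bases or more), and 212 overlapped another ORF.

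Estimated counts were rounded and fitted with edgeR 4.0.16 (R 4.3.3, limma 3.58.1): transcripts kept by filterByExpr at a minimum count of 10, TMM scaling and a quasi-likelihood F test on strain over the 10 YM libraries. A transcript was called when its p adjusted by Benjamini and Hochberg was under 0.05 and its log2 difference at least 1 in size. The WYF libraries were fitted alone, and the strain by medium interaction over all 20 untreated libraries. Against a group with no count, the bound used a floor of 3 counts over that group, covering counting error only. The labels give groups the same replicate numbers without saying what a number marks. In simulated YM counts for 5586 genes, 95% of 2-fold and 100% of 4-fold changes had an adjusted p under 0.05 in edgeR. So did 5 unchanged genes. No fold threshold was applied there, so these shares do not describe the rule for calls. Alternatives were DESeq2 1.42.0, RLE scaling, limma on log2(TPM + 1), effective lengths, other filters and thresholds, thinning, the replicate block and leaving out libraries.

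The named genes were the 10 largest non-overlapping differences in each direction outside Ty ORFs and copies, up to 6 called members of each gene list, members of lists of 16 or fewer, genes the study names, the 10 most abundant transcripts seen in one strain, and mating markers. Other named genes are said to have been chosen after their values were seen. The members and lists were chosen with earlier results of these data known, and the phospholipid, biotin, tricarboxylic acid, ribosome biogenesis, heme activator, meiotic and mitochondrial intron lists were added after values were seen.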

Additional observations from a re-analysis of the deposited data

Results flagged for a closer look

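The strain difference depended on the medium for 36 named genes outside those without counts in RM11, by the interaction in edgeR (adjusted p under 0.05 and at least 2-fold), given here as the log2 difference in YM minus that in WYF. It was larger or more positive in YM for FIT2 (5.28), HSP30 (4.26), INO1 (3.71), BTN2 (3.69), SPI1 (3.09), FIT3 (2.66), CTT1 (2.47), HSP42 (2.47), YER053C-A (2.19), TIS11 (2.19), MLS1 (2.10), ISF1 (2.10) and GND2 (2.04). Values between 1 and 2 were found for HSP26 (1.82), ARN1 (1.76), PDC5 (1.69), SUE1 (1.63), SIT1 (1.57), FRE1 (1.53), URA10 (1.496), MGA1 (1.48), CAR2 (1.35), GPH1 (1.26), CYB2 (1.25), TPS2 (1.21), AQY1 (1.12), OPI3 (1.04) and YOR385W (1.01). On the other side it was more negative in YM for DIP5 (-3.13), NOP16 (-1.68), GNP1 (-1.58), BFR2 (-1.35), RRN11 (-1.23), ENA5 (-1.20), EBP2 (-1.18) and MAK16 (-1.07). BTN2, HSP30, HSP42, CTT1 and GND2 belong to stress or chaperone genes, FIT2, FIT3 and TIS11 to iron genes, and BFR2, EBP2, MAK16, NOP16 and RRN11 to ribosome biogenesis. For ASP3-1 (-3.86), BDS1 (-3.41), HO (-4.84), NFT1 (-3.62), R0020C (-4.78), R0040C (-3.66) and YLR256W-A (-7.18) the value rests on RM11 libraries at or near 0 in YM and on the low counts of these transcripts in RM11 WYF libraries 1 and 2, so the size of the fitted value is no measure of a change. Medium and lane cannot be told apart in any of these.

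A single library lay far from the other 4 of its strain, with a gap to the nearest over the whole range above 0.71, in 22 cases. Chance alone gives this in about 1 in 20 groups. The text names 141 genes, each with a group per strain, so some cases of this kind would arise by chance. Genes that vary together are not independent, and the part of chance in these cases was not tested. RM11 library 5 was the low one, in CPM, for BTN2 (26.6), CYC1 (56.9), HSP30 (25.01), HSP42 (276), PUT4 (439.6), SPI1 (122), TDH3 (341) and VHT1 (364). RM11 library 2 was the low one for PDC5 (41.5). RM11 library 3 was the high one for AI1 (1.87). RM11 library 5 was the high one for MLS1 (24.4). S288c library 2 was the high one for DIP5 (25.5). S288c library 3 was the high one for ADH2 (17.2), FLO1 (65.4), FLO10 (15.1), FRE5 (8.51), HAP3 (42.2) and MF(ALPHA)2 (1.16). S288c library 4 was the high one for GAP1 (1633) and HMX1 (17.3). S288c library 5 was the low one for HAP1 (308) and PRM5 (23.03).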

How the results depend on the processing

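Depth (4224354 to 7060264 counts per library) limits the transcripts near or below 1 CPM, and S288c transcripts as the only counting target limit what can be said of genes absent from RM11. In YM the 847 calls (470 higher, 377 lower) became 4014 with no fold threshold (1982 and 2032), 263 at 4-fold (125 and 138), and 638 with at least 10 counts in every library, where 240 were lower. They were 842 with DESeq2, 793 with limma on log2(TPM + 1), 973 with no filter, and 837 to 897 with any one library left out (460 to 499 higher, 366 to 404 lower). On log2(TPM + 1) the median difference of all transcripts shifted by -0.10, and 46.8% of calls were higher in RM11 against 55.5%; with at least 10 counts in every library it was 62.4%. With no fold threshold WYF gave 3033 calls (1539 higher, 1494 lower) and the interaction 2017 (1048 and 969). Without RM11 WYF libraries 1 and 2, chosen after seeing the data, the interaction had 43 relatively lower transcripts, against 66. Without the 4 libraries that stood apart on the second component YM gave 927 calls, and those 4 alone gave 855, both chosen after seeing the data. AMN1, not called, changed sign on log2(TPM + 1) (-0.029). Of 3154 values of single named genes under the alternatives, 3114 kept direction and side of the threshold.

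With the replicate number as a block YM had 850 calls (476 higher, 374 lower), WYF 605 and the interaction 262 (215 and 47). Deviations of same-numbered S288c and RM11 libraries in YM correlated at -0.27 to 0.23, 3 of 5 pairs at 0.10 or more and 2 below 0, and the labels do not say what a number marks, so the libraries were treated as sharing only a number.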
